A study of Mus musculus with 20 samples.

Results

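The genes described here are 40 mitosis genes, a list defined by function: the cyclins and kinases that start mitosis, the spindle checkpoint, centromere and kinetochore proteins, spindle motors, the machinery of chromatid separation, and proteins of the central spindle that divide the cell. Each gene was matched by symbol to Affymetrix Mouse430A_2 probe sets that name only that gene, and where several did, the brightest over the 20 arrays stands for the gene. Of the 40 genes, 37 were found among the 12394 genes so measured. Ccnb1, Cdca8 and Espl1 had no such probe set and are not analysed here. All 37 passed the filter for testing, a log2 value above 4 in at least 5 of the 20 arrays, as did 8069 genes in all. A value below 4 is called dim here. The probe sets of 35 members were above 4 on all 20 arrays. Those of Cdc25c and Cenpe were above it on 14, with E18.5 control means of 3.96 and 3.39, so their differences at that stage were read against dim controls.

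Messenger RNA was measured in left lobes of the lungs of C57Bl6 embryos, with 1 animal per array and 5 animals in each of 4 groups. The controls (GR flox) carry a loxP-flanked glucocorticoid receptor gene, Nr3c1, and keep the receptor in mesenchymal cells. The mutants (GRCol1-Cre) carry Cre recombinase expressed from a bacterial artificial chromosome that holds the collagen gene Col1a2, which deletes the receptor in mesenchyme. Both genotypes were taken on embryonic days E16.5 and E18.5, the latter shortly before birth. The lobe was used whole, so the other cell types of the lung, which the Cre does not target, contribute RNA to every value.

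Mitosis starts when cyclin-dependent kinase 1 is activated by its cyclins, and it proceeds through assembly of the spindle, attachment of chromosomes at their kinetochores, a checkpoint that waits for the last attachment, and destruction of cyclin B and securin by the anaphase-promoting complex. Many of the genes for these steps are transcribed together late in the cell cycle, through promoters that are repressed in resting cells by the DREAM complex and activated in G2 by B-Myb and Foxm1. In the fetal lung, cell division slows as the air sacs mature towards birth, a period in which glucocorticoids are known to act through the mesenchyme.

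Values are log2 values, so a difference of 1 is a change of 2-fold. The glucocorticoid receptor checked the labels: at E16.5, Nr3c1 was at 8.78 ± 0.22 (SD, n = 5) in controls against 7.07 ± 0.45 in mutants, and at E18.5 at 9.42 ± 0.22 against 7.80 ± 0.19, with no overlap at either stage. By Xist and Y-linked genes, females made up 1 of 5 E16.5 controls, 5 of 5 E16.5 mutants, 3 of 5 E18.5 controls and 2 of 5 E18.5 mutants, so sex and genotype largely coincide at E16.5. Of the lung's own markers, the epithelial gene Sftpc and the mesenchymal gene Col1a2 were bright on every array, while the probe set of the epithelial factor Nkx2-1 was dim throughout. All 5 thymocyte markers were dim on every array.

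A single array stood apart and bears on the results at E18.5. The library labelled E18.5 control 3 was the highest of its group for 37 of the 37 mitosis genes. Its mean over the 37 was 8.93, against 7.66 to 7.74 in the other E18.5 controls. The embryonic globin Hba-x, an erythroid gene, read 8.13 in it, against 3.21 to 4.19 in the other E18.5 controls, 2.27 to 3.90 in the E18.5 mutants and 7.02 to 8.60 in the E16.5 controls. Hbb-bh1, another embryonic globin, was also highest in this animal among the E18.5 controls, but below 4. Of the 7 erythroid markers measured, 3 were dim on all 20 arrays, among them Klf1 and Epor; the mean of the 7 was 5.47 in this control, the highest of its group, whose lowest was 4.63. The other bright erythroid genes did not stand out upward in it: Slc4a1 was at 7.92, the lowest of its group (8.25 to 9.19 in the others), and Alas2 at 11.33, within the range of the others (10.88 to 11.38). What part these differences have in the results was not tested, and counts are given with and without this animal.

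At E18.5 the mitosis genes were higher in lungs without mesenchymal glucocorticoid receptor. Of the 37 members, 36 rose and 1, Pttg1, fell (limma, Benjamini-Hochberg adjusted p under 0.05). Over all 8069 genes tested, 18.6% were called higher, 15.9% lower and 34.5% in either direction. The median difference of the 37 was 1.01 (2.01-fold), beside 0.03 over all genes. Among the 36 that rose, differences ran from 0.67 (1.59-fold) for the kinesin Kif22 to 2.14 (4.40-fold) for Psrc1, a spindle protein. In whole-lobe RNA, a larger share of dividing cells and more of these transcripts per dividing cell cannot be told apart.

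Animals of the 2 groups overlapped in most of these genes. In 28 members, 3 of the 5 mutants were above all 5 controls, in 2 members 4 were, and in 1, Ect2, all 5 were. Over all genes tested, 8.27% had every E18.5 mutant above every control. Most of the overlap was with control 3: against controls 1, 2, 4 and 5, all 5 mutants were higher in 35 members, beside 20.5% of all genes. Without control 3, the counts were again 36 higher and 1 lower, the background was 23.0% higher, 18.6% lower and 41.6% in either direction, and the median difference of the 37 was 1.26 (2.40-fold). Fitted to the 10 E18.5 arrays alone, with no E16.5 animals to share in the estimate of the spread, 26 of the 37 were called, and of the members given below with each animal's value, Cdk1, Plk1, Ttk, Birc5, Aurkb, Hmmr and Ube2c were not.

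**Figure D1:**
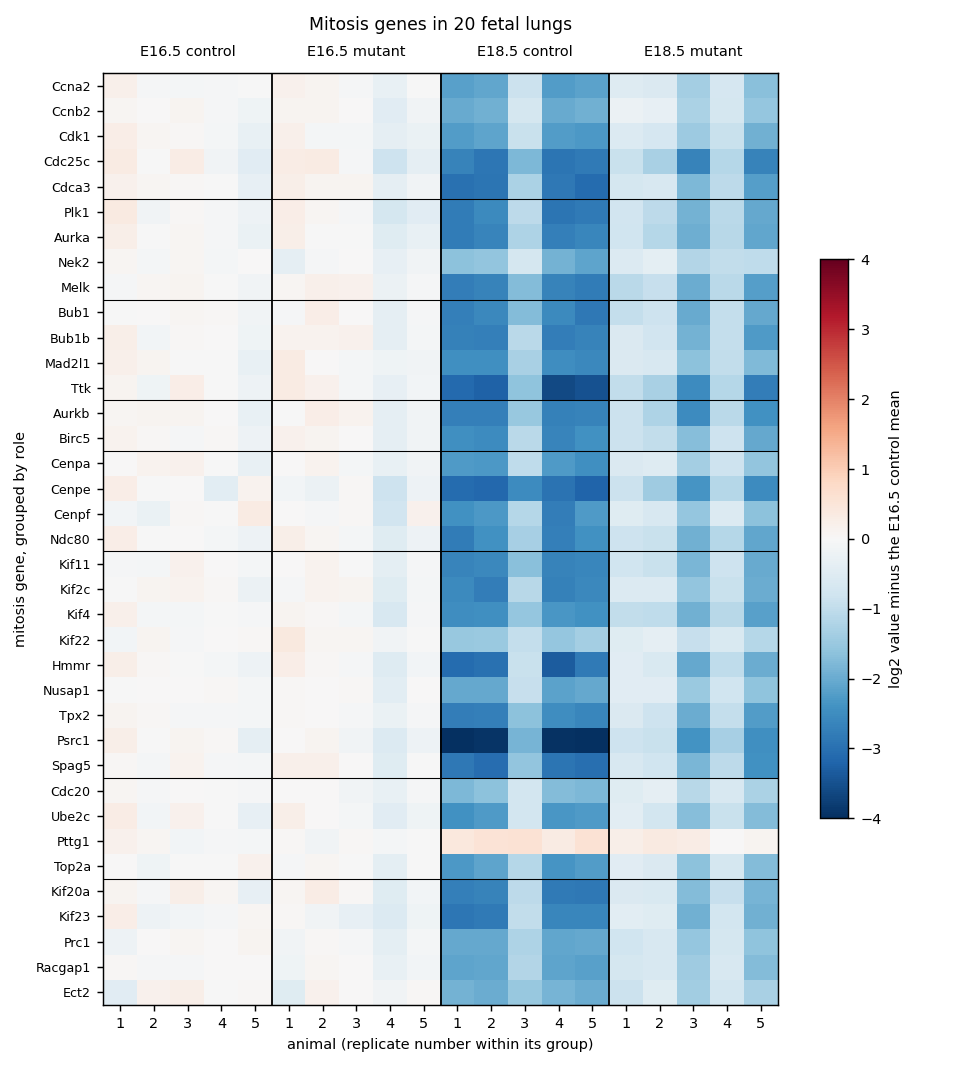
Log2 value of each of the 37 mitosis genes (rows, grouped by role) in each of the 20 animals (columns, 5 per group), as the difference from the gene's mean in the E16.5 controls; blue is lower and red higher. The E18.5 controls are the darkest group except animal 3, E18.5 mutants 3 and 5 are darker than mutants 1, 2 and 4, and Pttg1 is the row that turns the other way.

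The promoters of these genes are shown because most of those on hand hold short sequences that the list was not built on. Whether these sequences bear on the expression differences was not tested. RefSeq promoter windows, 250 bases before to 50 after the annotated start in mouse build GRCm38.p6, were on hand for 32 of the 37. Each was searched on both strands for the cell cycle genes homology region (CHR, TTTGAA or TTCGAA), which the MuvB core of DREAM binds, for the CCAAT box (CCAAT), which NF-Y binds, and for the E2F motif TTCCCGC. None of these motifs contains another. The 100 bases before the start are printed for 7 members, 5′ to 3′ on the gene's strand, with CHR and CCAAT matches in capitals (CCAAT reads ATTGG, and TTTGAA reads TTCAAA, where the match is on the opposite strand). Cdk1, Ube2c, Cdc20, Top2a and Kif11 were chosen as members with both motifs before the start, Psrc1 as the member with the largest difference, and Pttg1 as the member that fell.
Cdk1 (chr10:69352913-69353012, minus strand): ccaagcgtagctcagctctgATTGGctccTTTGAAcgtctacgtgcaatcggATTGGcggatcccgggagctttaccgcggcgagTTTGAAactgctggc
Cdc20 (chr4:118437344-118437443, minus strand): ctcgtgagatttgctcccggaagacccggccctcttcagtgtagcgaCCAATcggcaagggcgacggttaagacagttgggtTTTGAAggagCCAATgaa
Ube2c (chr2:164769829-164769928, plus strand): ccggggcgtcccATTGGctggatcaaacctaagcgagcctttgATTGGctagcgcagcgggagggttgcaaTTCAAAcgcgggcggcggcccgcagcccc
Top2a (chr11:99024190-99024289, minus strand): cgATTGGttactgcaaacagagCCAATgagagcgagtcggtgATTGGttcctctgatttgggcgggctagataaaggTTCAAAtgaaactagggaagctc
Kif11 (chr19:37376282-37376381, plus strand): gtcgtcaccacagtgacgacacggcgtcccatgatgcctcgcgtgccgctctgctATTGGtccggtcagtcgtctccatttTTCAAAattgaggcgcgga
Psrc1 (chr3:108383704-108383803, plus strand): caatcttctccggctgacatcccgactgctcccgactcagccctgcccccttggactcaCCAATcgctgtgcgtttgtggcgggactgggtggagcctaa
Pttg1 (chr11:43425982-43426081, minus strand): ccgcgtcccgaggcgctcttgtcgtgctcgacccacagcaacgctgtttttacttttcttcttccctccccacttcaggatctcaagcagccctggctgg
In Cdk1, CHR matches began 71 and 15 bases before the start, and in Cdc20, Ube2c, Top2a and Kif11 one began 18, 29, 23 and 19 bases before it. The window of Psrc1 holds a TTCGAA that begins 5 bases after the start, beyond the printed stretch, and a CCAAT box 41 bases before it. The window of Pttg1 held no CHR match.

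Of the 32 windows, 25 held a CHR (78.1%), beside 16.4% of the 6580 tested genes with a window, 19.2% of all 32851 windows and 40.5% of 74 other mitotic genes. A CHR that began between 40 bases before and 45 after the start was found in 24 of the 32 (75%). The shares were 4.01% of the tested genes and 21.6% of the 74 other mitotic genes. These limits were set after the positions of the members' matches were seen. The CCAAT box was in 25 of 32 windows (78.1%), beside 43.1% of tested genes, and TTCCCGC in 0 of 32, beside 10.3%. The 7 members without a CHR in the window were Nek2, Melk, Mad2l1, Birc5, Cenpe, Nusap1 and Pttg1, and 6 of these 7 rose in the E18.5 mutants. The median difference at E18.5 was 1.07 in the 25 members with a CHR and 0.94 in the 7 without. In the other mitotic genes it was 0.76 in the 30 with a CHR, of which 22 were called higher, and 0.29 in the 44 without, of which 21 were; neither split was tested. Such matches are letters in a window and do not show binding.

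**Figure D2:**
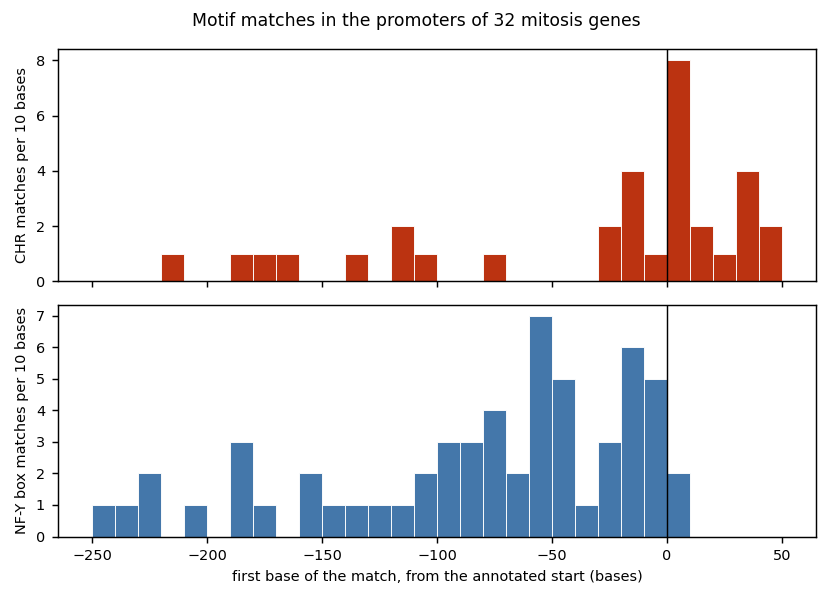
Positions of CHR matches (upper panel) and CCAAT, or NF-Y, boxes (lower panel) in the promoter windows of 32 mitosis genes, as the distance in bases of the first base of each match from the annotated start (0), counted per 10 bases. CHR matches gather within 40 bases before and 45 after the start in 24 genes, while CCAAT boxes lie mostly before it.

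Of the members, 5 act at the entry into mitosis: the cyclins Ccna2 and Ccnb2, the kinase Cdk1 that they switch on, the phosphatase Cdc25c that removes its inhibitory phosphates, and Cdca3, a trigger of mitotic entry. All 5 rose in the E18.5 mutants, with a median difference of 0.90. Cdk1, whose promoter is the first one printed above, read 9.46, 9.58, 10.80, 9.47 and 9.39 in E18.5 controls 1 to 5 and 11.16, 11.02, 10.24, 10.79 and 9.78 in mutants 1 to 5. Mutants 1 and 2 were above every control, and mutants 3, 4 and 5 were above every control but the third. The difference was 0.86 (SE 0.26, adjusted p = 0.0159, 1.81-fold). Ccna2, cyclin A2, read 9.36, 9.48, 10.70, 9.31 and 9.40 in the controls and 11.04, 10.97, 10.18, 10.87 and 9.89 in the mutants; the groups differed by 0.94 (SE 0.24, adjusted p = 0.00562). Cdca3 had the largest difference of the 5, 1.34 (SE 0.31, adjusted p = 0.00329, 2.53-fold). Its values were 8.02, 8.08, 9.75, 8.13 and 7.93 in controls and 10.29, 10.36, 9.20, 9.94 and 8.81 in mutants, so that control 3 fell between mutants 3 and 4. Ccnb2 differed by 0.90 and Cdc25c, dim in the mean of the controls, by 0.89 (adjusted p = 0.0482). The call of Cdc25c was the least secure of the 37: it was lost under 20 of 33 alternatives, among them the test of every probe set (adjusted p = 0.0521), no filter on dim genes, sex as a covariate and 15 of the 20 removals of a single array, with differences of 0.68 to 0.89 in those.

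Of the mitotic kinases, Plk1 drives many steps from entry to cytokinesis, Aurka matures the centrosomes, Nek2 separates them, and Melk is a kinase expressed in dividing progenitors. All 4 rose at E18.5. Plk1 read 7.21, 7.47, 8.96, 7.11 and 7.21 in controls 1 to 5 and 9.26, 8.99, 8.13, 8.96 and 7.97 in mutants 1 to 5. Control 3 equalled mutant 4 to 2 decimals, while the other 4 controls were below every mutant. The difference was 1.07 (SE 0.31, adjusted p = 0.013, 2.10-fold). Melk read 7.60, 7.72, 8.63, 7.71 and 7.57 in controls and 9.29, 9.44, 8.39, 9.29 and 8.16 in mutants and so differed by 1.07 (SE 0.23, adjusted p = 0.00151). Aurka differed by 1.0 and Nek2 by 0.76.

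The spindle checkpoint holds anaphase until every kinetochore is attached. Its members Bub1, Bub1b, Mad2l1 and Ttk, the kinase that starts the signal, all rose, by 1.12, 1.10, 1.14 and 1.27. Mad2l1, the checkpoint's inhibitor of Cdc20, read 9.14, 9.15, 10.29, 9.09 and 9.01 in controls and 11.01, 10.94, 9.97, 10.62 and 9.83 in mutants. Mutants 1, 2 and 4 were above all controls, and mutants 3 and 5 were below control 3 but above the other 4 (SE 0.24, adjusted p = 0.00141, 2.20-fold). Ttk read 5.64, 5.52, 7.15, 5.16 and 5.29 in controls and 7.76, 7.46, 6.25, 7.62 and 6.01 in mutants, with the same animals high (SE 0.35, adjusted p = 0.00957).

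The chromosomal passenger complex corrects faulty attachments. Its kinase Aurkb and its subunit Birc5 (survivin) rose by 0.84 and 0.94. Birc5 read 8.98, 8.93, 10.37, 8.81 and 9.01 in controls and 10.58, 10.45, 9.74, 10.61 and 9.40 in mutants (SE 0.26, adjusted p = 0.0099, 1.91-fold). Aurkb read 7.70, 7.70, 8.94, 7.75 and 7.76 in controls and 9.58, 9.19, 7.91, 9.37 and 8.01 in mutants (SE 0.29, adjusted p = 0.0331). Here mutants 3 and 5 lay close above controls 1, 2, 4 and 5. The call was lost without any 1 of E18.5 controls 1, 2, 4 and 5 or mutants 1, 2 and 4, with differences of 0.65 to 0.79. The other tested probe set of Aurkb gave 1.13 with all animals.

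Centromere and kinetochore members are Cenpa, the histone that marks centromeres, the motor Cenpe and its partner Cenpf, and Ndc80, which grips microtubules. All 4 rose, with a median of 1.15. Cenpf read 7.43, 7.56, 8.72, 7.09 and 7.60 in controls and 9.37, 9.23, 8.32, 9.33 and 8.22 in mutants and so differed by 1.22 (SE 0.28, adjusted p = 0.00267, 2.32-fold). Cenpe was dim in all 5 controls, at 3.28, 3.22, 3.84, 3.43 and 3.16, and read 5.52, 4.96, 4.0, 5.24 and 3.84 in the mutants; the groups differed by 1.33 (SE 0.27, adjusted p = 0.000978). It was dim in mutant 5 too. Cenpa differed by 1.09 and Ndc80 by 0.97.

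The 9 spindle motors and microtubule proteins all rose, with a median of 1.16. Psrc1, which binds microtubules at the central spindle, had the largest difference of the 37, 2.14 (SE 0.41, adjusted p = 0.000741, 4.40-fold). It read 5.43, 5.53, 7.58, 5.49 and 4.55 in controls and 8.61, 8.53, 7.04, 8.09 and 6.99 in mutants. Control 3 was higher than mutants 3 and 5, and the other controls were below every mutant. Without control 3 the difference was 2.60. Hmmr, a protein of spindle poles, read 5.94, 6.02, 8.11, 5.68 and 6.18 in controls and 8.54, 8.40, 6.96, 7.98 and 7.01 in mutants and so differed by 1.39 (SE 0.37, adjusted p = 0.00778). Spag5, which holds spindle poles together, differed by 1.34, the kinesins Kif2c, Kif11 and Kif4 by 1.23, 1.16 and 0.79, the spindle assembly factor Tpx2 by 1.13 and the microtubule bundler Nusap1 by 0.88. Kif22, which pushes chromosomes from the poles, had the smallest rise, 0.67; its other 2 tested probe sets gave 1.04 and 1.43.

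Chromatid separation is where the direction divided. Cdc20, the activator of the anaphase-promoting complex, its conjugating enzyme Ube2c, and Top2a, the topoisomerase that untangles sister chromatids, rose by 0.77, 0.91 and 1.01. Top2a read 9.72, 9.91, 10.87, 9.66 and 9.76 in controls and 11.55, 11.44, 10.38, 11.31 and 10.27 in mutants (SE 0.24, adjusted p = 0.00398, 2.01-fold). Ube2c read 9.56, 9.71, 11.26, 9.66 and 9.71 in controls and 11.56, 11.25, 10.27, 11.09 and 10.26 in mutants (SE 0.29, adjusted p = 0.022). In Ube2c 1 mutant was above control 3, and the call was lost without any 1 of E18.5 controls 1, 2, 4 and 5 or mutants 1, 2 and 4, with differences of 0.74 to 0.85.

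Pttg1, securin, which keeps the enzyme separase inactive until anaphase, fell; it is described here because its values went the other way. Pttg1 read 11.80, 11.92, 11.97, 11.71 and 11.96 in E18.5 controls and 11.61, 11.73, 11.68, 11.39 and 11.49 in mutants. Of the 5 mutants, 4 were below all controls, and the difference was -0.29 (SE 0.08, adjusted p = 0.00723). Its other tested probe set gave -0.30. The brightest one has the suffix _s_at, which marks a probe set that may detect more than 1 transcript. This limit is not particular to Pttg1. Among the members that rose, the probe set of Spag5 has the same suffix. Those of Aurkb, Kif2c, Kif22 and Cdc20 have _x_at, which also marks possible detection of other transcripts. Control 3 had the highest Pttg1 value of its group as well, but next to those of controls 5 and 2.

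The central spindle and cytokinesis members Kif20a, Kif23, Prc1, Racgap1 and Ect2 build the midzone and set the contractile ring. All 5 rose, with a median of 0.90. Kif23, a motor of the centralspindlin complex, read 7.37, 7.44, 9.28, 7.67 and 7.65 in controls and 9.84, 9.78, 8.36, 9.53 and 8.35 in mutants and so differed by 1.29 (SE 0.33, adjusted p = 0.00599, 2.44-fold). Kif20a, a motor that carries the passenger complex to the midzone, read 7.54, 7.62, 9.23, 7.46 and 7.43 in controls and 9.72, 9.66, 8.54, 9.37 and 8.43 in mutants and so differed by 1.29 (SE 0.31, adjusted p = 0.00381). In both, control 3 lay below mutants 1, 2 and 4 and above mutants 3 and 5. Ect2, which activates RhoA at the ring, was singled out after its values were seen as the member whose E18.5 groups did not overlap. It read 8.30, 8.23, 8.68, 8.33 and 8.23 in controls and 9.34, 9.72, 8.83, 9.46 and 8.92 in mutants and so differed by 0.90 (SE 0.17, adjusted p = 0.000572). Prc1 differed by 0.82 and Racgap1 by 0.90.

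**Figure D3:**
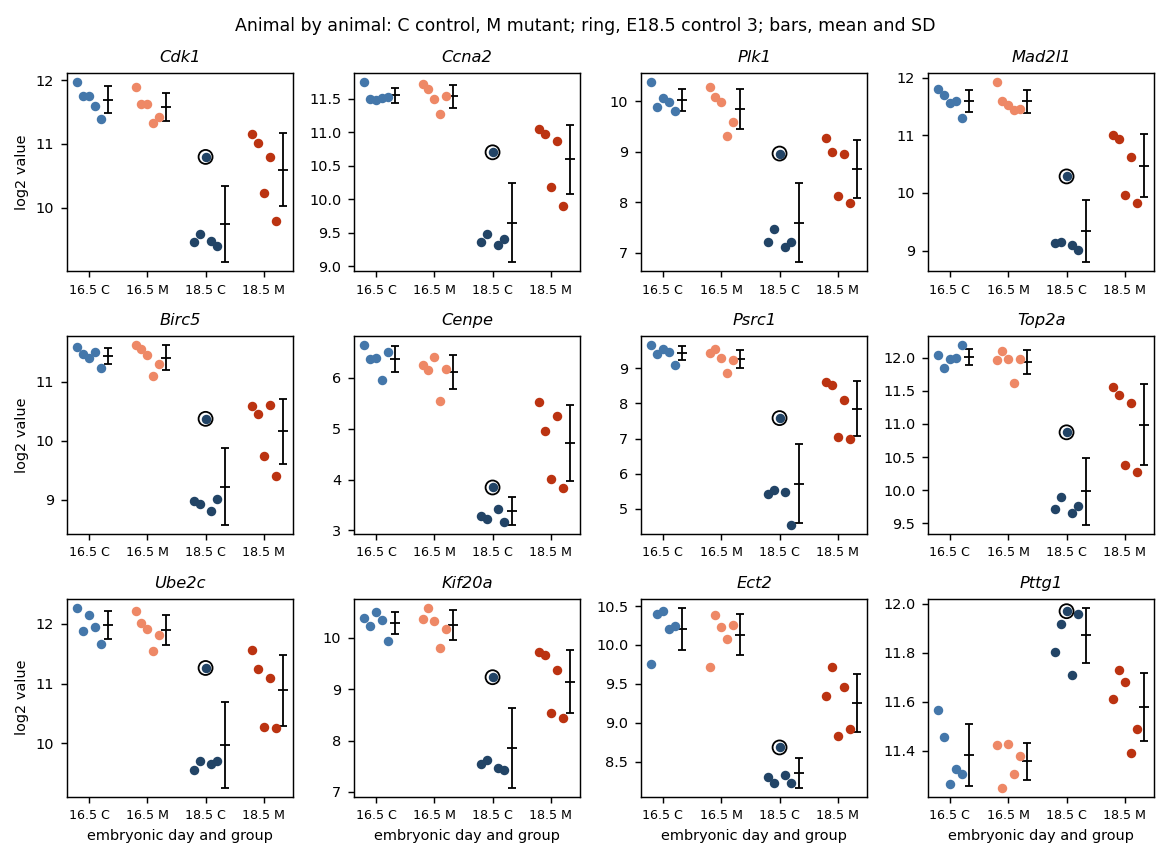
Log2 values of 12 mitosis genes in each animal (points, in replicate order from left to right), with the mean and SD of each group of 5 (bars), at E16.5 and E18.5 in controls (C) and mutants (M); vertical scales differ between panels. In the panels other than Ect2, Cenpe and Pttg1 the ringed point, E18.5 control 3, lies among the E18.5 mutants, and in Ect2 every E18.5 mutant is above every control.

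Further probe sets of the same genes gave differences in the same direction at E18.5. Of the members, 19 had more than 1 probe set, with 31 further ones, of which 22 passed the filter. At E18.5, 20 of the 22 were called higher, 1 (the other one of Pttg1) lower, and the dimmest tested one of Kif2c, at 1.29, was not called.

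At E16.5 the mitosis genes showed no called difference between mutants and controls. Of the 37, 0 passed the test in either direction with limma, and 0 had an unadjusted p under 0.05, beside 4.41% of all genes; over all genes, 0.248% were called, 0.0496% higher and 0.198% lower. The differences ran from -0.26 (Cenpe) to 0.08 (Kif22), with a median of -0.07. The SE of each gene was the same as at E18.5, since the model shares its estimate of the spread over 4 groups of equal size. The members' median SD was 0.15 and 0.22 in E16.5 controls and mutants, but 0.56 and 0.59 at E18.5. The SE thus holds scatter from E18.5, so the 0 under 0.05 does not show that the E16.5 differences were unusually small. Cdk1 read 11.97, 11.76, 11.75, 11.60 and 11.39 in E16.5 controls and 11.89, 11.62, 11.62, 11.33 and 11.43 in mutants. Top2a read 12.03, 11.85, 11.98, 12.0 and 12.19 in controls and 11.96, 12.10, 11.98, 11.62 and 11.98 in mutants. The groups overlapped in both genes. In no member were all 5 mutants above all controls, beside 0.347% of all genes. Psrc1, which differed most at E18.5, read 9.66, 9.42, 9.54, 9.47 and 9.09 in controls and 9.44, 9.55, 9.28, 8.88 and 9.22 in mutants and so differed by -0.16 (SE 0.41). Mutant 4 had the lowest value of its group in 34 of the 37 members. Because sex and genotype largely coincide at this stage, their effects there can hardly be told apart.

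From E16.5 to E18.5 the mitosis genes fell in control lungs. Of the 37, 36 fell and Pttg1 rose, beside 35.5% of all genes called lower, 35.3% higher and 70.9% in either direction. The median change of the 37 was -2.34, a 5.06-fold fall, beside -0.01 over all genes. In 36 members all 5 E18.5 controls, control 3 included, were below all 5 E16.5 controls, beside 25.3% of all genes. The changes ran from -1.37 (Kif22) to -3.72 (Psrc1, 13.2-fold). Without control 3, 36 fell again and the median was -2.59, beside 36.5% of all genes called lower and 72.0% called in either direction.

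Among the named members, Cdk1 went from 11.70 ± 0.21 (SD, n = 5) to 9.74 ± 0.59, a change of -1.95 (SE 0.26, adjusted p = 1.98e-06). Mad2l1 went from 11.59 ± 0.19 to 9.34 ± 0.53, a change of -2.26. Cenpe went from 6.37 ± 0.26 to a dim 3.39 ± 0.28, a change of -2.98. These are falls of 3.88-, 4.78- and 7.91-fold. Plk1 read 9.81 to 10.37 in the E16.5 controls and 7.11 to 8.96 in the E18.5 controls, and the Aurkb, Birc5 and Melk changes were -2.47, -2.22 and -2.53. The largest falls after Psrc1 were those of Ttk, -3.01 (8.04-fold), and Cenpe. Kif23 and Kif20a, the cytokinesis motors, fell by 2.39 and 2.42 on the log2 scale, and Ube2c by 2.0. Pttg1 rose from 11.57, 11.46, 11.26, 11.32 and 11.30 in the E16.5 controls to the E18.5 values above, a change of 0.49 (SE 0.08, adjusted p = 1.62e-05), and all 5 E18.5 controls were above all E16.5 controls.

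In the mutants the mitosis genes fell as well. Between E16.5 and E18.5, 36 members fell and Pttg1 rose by 0.22 (adjusted p = 0.0195), beside 27.6% of all genes called lower and 56.3% in either direction. The median change of the 37 was -1.12, a 2.17-fold fall. In 30 members all 5 E18.5 mutants were below all 5 E16.5 mutants, beside 20.3% of all genes. Cdk1 fell by 0.98 on the log2 scale, Mad2l1 by 1.12, Plk1 by 1.19, Top2a by 0.94 and Psrc1 by 1.42. Kif23 fell by 0.87 (SE 0.33, adjusted p = 0.032), a call lost without any 1 of E16.5 mutants 1, 2 and 5 or E18.5 mutants 3 and 5.

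Gene by gene, the fall in mutants was 36.5% (Kif23) to 64.9% (Aurkb) of the fall in controls on the log2 scale, with a median of 49.4% over the 36 genes that fell. Without control 3 the median was 44.5%. The 637 other genes that fell in controls by a log2 of 1 or more had a median of 61.7% and a middle range, from the first to the third quartile, of 53.6% to 71.9%; without control 3 their median was 58.6%. Only the members were left out of these 637 genes, so further mitotic genes were not removed. The difference between the members and the 637 genes was not tested. Across the 36 genes the 2 changes, which share no animals, ran together with a Pearson r of 0.80 and a Spearman rho of 0.86. This is a description over genes of the same arrays, which are not independent replicates.

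**Figure D4:**
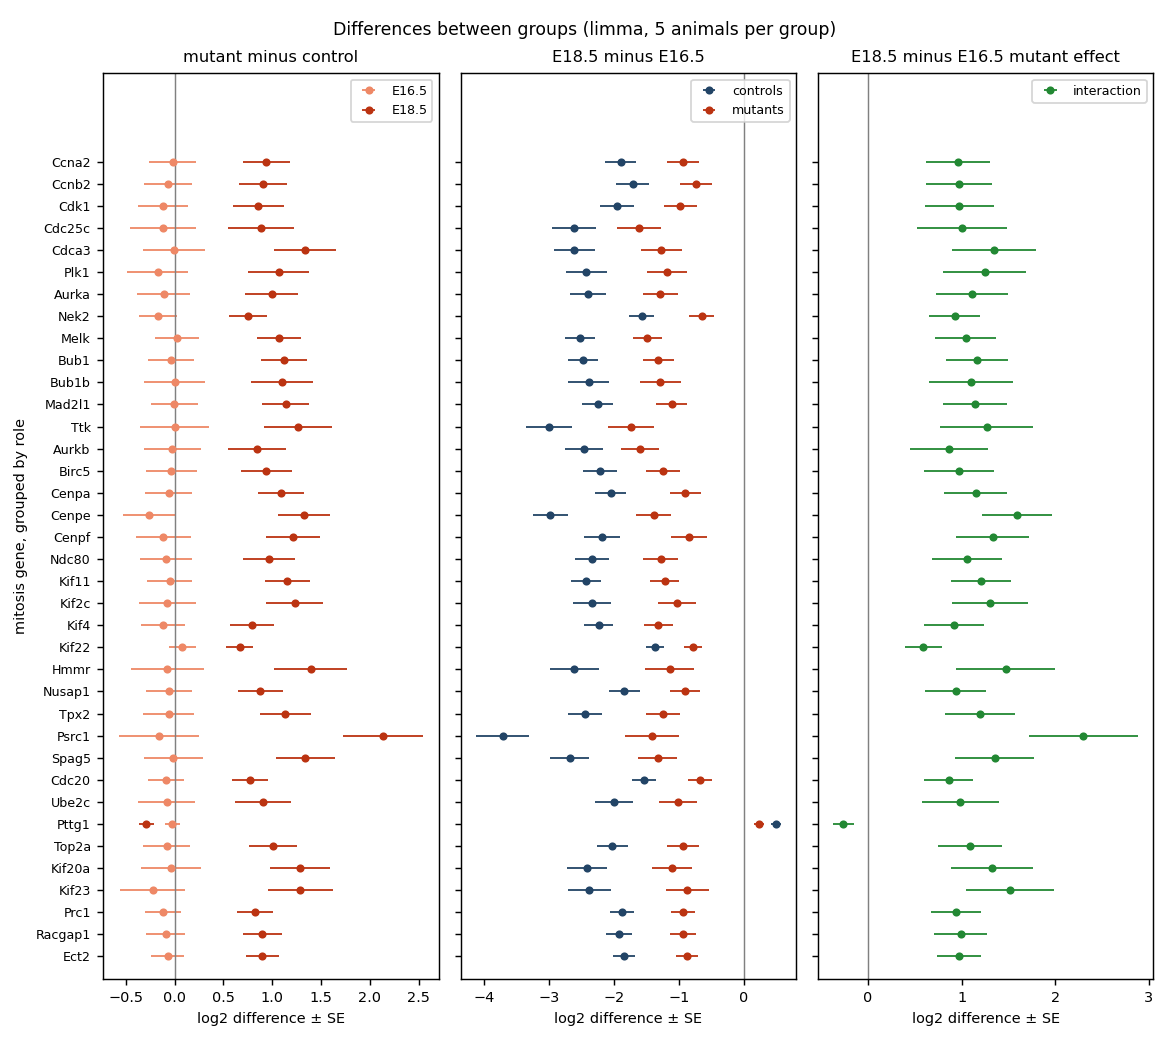
Log2 difference ± SE from limma for each of the 37 mitosis genes: mutant minus control at each stage (left), E18.5 minus E16.5 in each genotype (middle), and the E18.5 mutant effect minus the E16.5 one (right), with 5 animals per group. At E16.5 the points lie between -0.26 and 0.08, at E18.5 between 0.67 and 2.14 except Pttg1 at -0.29, and the falls in mutants are smaller than those in controls for each of the 36 genes that fell.

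The test of whether the mutant effect differed between stages called 12 of the 37 members, all with a larger difference at E18.5, beside 3.62% of all genes called higher and 8.40% in either direction. They were Nek2, Bub1, Mad2l1, Cenpa, Cenpe, Cenpf, Kif11, Psrc1, Cdc20, Prc1, Racgap1 and Ect2. The largest interaction was that of Psrc1, 2.30 (SE 0.58, adjusted p = 0.0209), and the smallest adjusted p that of Cenpe, 1.59 (SE 0.38, adjusted p = 0.0147). Cenpf and Mad2l1 gave 1.33 and 1.14 (adjusted p = 0.0449 and 0.045). Cdk1, at 0.97, did not pass (adjusted p = 0.103), nor did Top2a, at 1.09 (adjusted p = 0.057), or Aurkb, at 0.87 (adjusted p = 0.203). The median over the 37 was 1.09, beside 0.02 over all genes, and 36 of the 37 had an unadjusted p under 0.05, beside 24.8% of all genes.

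This count moved with single animals. Without E18.5 control 3, 35 of the 37 were called, beside 9.31% of all genes called higher and 17.9% in either direction, and Cdc25c and Pttg1 were not (adjusted p = 0.0767 and 0.147). Without E18.5 mutant 5 or mutant 3, 33 and 26 were called. Leaving out any other single array gave 3 to 13, and each removal other than that of E16.5 control 5 or E16.5 mutant 2 moved the count by more than 1.5 times. With sex as a covariate 2 members were called.

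At E18.5 the mutants stood between the stages. In 36 of the 37 members every E18.5 mutant was below every E16.5 control, beside 15.2% of all genes, and 36 were called lower than the E16.5 controls, beside 24.7% of all genes called lower and 52.4% in either direction, with Pttg1 higher by 0.20. The median difference over the 37 was -1.14, a 2.20-fold lower level. Averaged over the 37, the E18.5 mutants read 9.49, 9.41, 8.43, 9.25 and 8.26 (animals 1 to 5), the E16.5 controls 10.01 to 10.24 and the E16.5 mutants 9.72 to 10.22. Mutants 3 and 5 were thus lower than control 3, at 8.93, and mutants 1, 2 and 4 higher. Mutant 1 had the highest value of its group in 24 members and mutant 2 in 12, and mutant 5 the lowest in 32.

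The mitosis genes spread widely between animals of a group at E18.5. The median SD of a member was 0.15 in E16.5 controls, 0.22 in E16.5 mutants, 0.56 in E18.5 controls and 0.59 in E18.5 mutants. Over all genes tested it was 0.17, 0.14, 0.16 and 0.16. Without control 3 the members' median SD in E18.5 controls was 0.09, beside 0.09 over all genes. The wide spread of the controls was thus that of 1 animal. In the mutants it was a split between animals 1, 2 and 4, with means of 9.49, 9.41 and 9.25, and animals 3 and 5, with 8.43 and 8.26.

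To set each animal beside its overall state, the 7942 tested genes outside both mitotic lists were used to place it on the line from the E16.5 control mean (0) to the E18.5 control mean (1), with each control left out of the mean it was placed against. On this scale E18.5 control 3 stood at 0.714 and the other E18.5 controls at 1.02 to 1.09. E18.5 mutants 1, 2 and 4 stood at 0.528, 0.532 and 0.455 and mutants 3 and 5 at 0.764 and 0.764. The E18.5 animals with high mitosis genes were therefore also those whose other genes stood closer to E16.5. Only the genes of both mitotic lists were left out, so further cell cycle genes, such as those of DNA replication, were not removed. The scale is thus not independent of cell division, and their part in it was not tested. The animals fall into separate clusters, so no correlation is given.

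**Figure D5:**
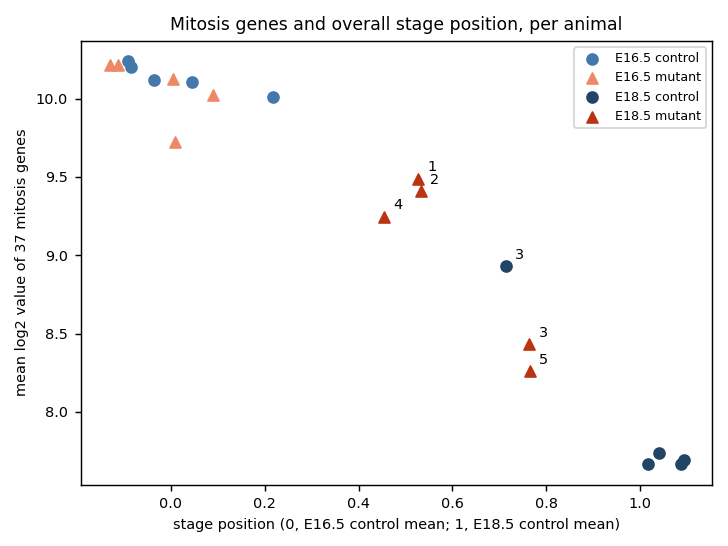
Mean log2 value of the 37 mitosis genes in each animal (vertical axis) against the animal's stage position over 7942 other genes (horizontal axis, no unit; 0 is the E16.5 control mean and 1 the E18.5 control mean), with numbers for the E18.5 mutants and E18.5 control 3. E18.5 control 3 lies at 0.714 and 8.93, between mutants 1, 2 and 4 and mutants 3 and 5, and away from the other E18.5 controls at 7.66 to 7.74.

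Genes of the same pathway outside the list were read from 123 further mitotic genes, of which 93 were on the array and 90 tested. At E18.5, 53 of the 90 rose and 2 fell in the mutants, beside 18.6% of all genes called higher and 15.9% lower, with a median difference of 0.44. Without control 3, 65 rose and 2 fell, beside 23.0% and 18.6%. In controls, 77 of the 90 fell between the stages and 4 rose, beside 35.5% and 35.3%. By role, and beside the same 18.6%, the kinetochore and centromere proteins were called higher in 17 of 22, the further spindle and centrosome proteins in 13 of 17, condensins and cohesins in 8 of 14, entry regulators in 6 of 10, regulators of mitotic transcription in 3 of 6 and cytokinesis proteins in 3 of 9. The anaphase-promoting complex, with 10 tested subunits, its activator Fzr1 and its enzyme Ube2s, was called higher in 3 of 12, a share near that of all genes. This depended on control 3: without it, 7 of the 10 subunits and both Fzr1 and Ube2s were called higher, beside 23.0% of all genes.

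In each of these roles 1 gene had the largest called difference. It was 1.87 (SE 0.31, adjusted p = 0.000192) for Cenpm, a centromere protein, which read 3.42, 3.47, 5.15, 3.44 and 3.16 in E18.5 controls and 5.91, 6.30, 4.93, 5.91 and 4.91 in mutants. Cenpm was dim in all E18.5 controls but the third, and Dlgap5 and Foxm1 in 2 controls each, so their differences were read against partly dim controls. It was 1.84 (SE 0.43, adjusted p = 0.00292) for Dlgap5, a spindle assembly factor, and 1.26 (SE 0.27, adjusted p = 0.00143) for Ncapg, a condensin subunit. Foxm1, the transcription factor that drives many late cell cycle genes, read 3.82, 3.85, 5.98, 4.04 and 4.27 in controls and 6.71, 5.93, 4.57, 6.64 and 4.18 in mutants; the groups differed by 1.21 (SE 0.44, adjusted p = 0.0393). Its values followed the same animals as the list: control 3 was high, and mutants 3 and 5 were low. Mki67, the proliferation marker Ki-67, differed by 0.95 (SE 0.22, adjusted p = 0.00284), Cep55, which acts at abscission, by 0.76 (SE 0.22, adjusted p = 0.0106), and Cdc23, a subunit of the anaphase-promoting complex, by 0.37 (SE 0.08, adjusted p = 0.00292). The genes that fell were Rhoa, the GTPase of the contractile ring, by 0.39 on the log2 scale (adjusted p = 0.00169), and Pdcd6ip, an ESCRT adaptor of abscission, by 0.33 (adjusted p = 0.0239). Both also act outside mitosis.

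The 10 tested subunits of the anaphase-promoting complex were also set beside its activator Cdc20 and its enzyme Ube2c. Their median change between the stages in controls was -0.43, with 8 of 10 called lower (35.5% of all genes were), beside -1.54 and -2.0 for Cdc20 and Ube2c. Their median difference at E18.5 was 0.21, beside 0.77 and 0.91, and 3 of the 10 were called higher; without control 3, 7 were, beside 23.0% of all genes, with a median of 0.28. Whether subunits and partners differ was not tested. A CHR was in the windows of 1 of 9 of these subunits, beside 25 of 32 members.

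Some markers of cell types moved with the E18.5 comparison, beside 18.6% of all genes called higher and 15.9% lower. Of 4 tested epithelial markers, 1 (Epcam) was higher in mutants, by 0.85; Epcam was also highest in control 3 among the controls, at 10.88 against 10.12 to 10.25, while Cdh1 was lowest in it, at 12.07 against 12.40 to 12.55, and Sftpb was at 12.43, within the range of the others. Of 5 mesenchymal markers, Pdgfra was lower, by 0.52 on the log2 scale. Of 5 endothelial markers 3 were lower, all 3 tested mesothelial markers were lower, and 0 of 5 immune markers were called. Of 3 tested erythroid markers Alas2 was lower. Of 4 tested cardiac markers 1, Myl2, was higher, by 1.46, at 4.18 to 5.62 in mutants and 2.47 to 4.51 in controls, and 0 of 2 tested liver markers were called. Averaged over each list, the E18.5 ranges of controls and mutants were 10.41 to 10.51 and 10.45 to 10.75 for epithelium, 11.60 to 11.93 and 11.40 to 11.78 for mesenchyme, 9.68 to 10.03 and 9.39 to 9.65 for endothelium, 7.64 to 8.26 and 7.57 to 8.49 for immune cells, and 8.94 to 9.13 and 7.75 to 8.34 for mesothelium. Their part in the result was not tested.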

How the data were processed

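Total RNA of 20 left lung lobes was hybridised to Affymetrix Mouse430A_2 arrays, 1 animal per array. Per the submitters' processing notes, the deposited log2 values come from GCRMA, which corrects background, scales arrays to each other and sums up each probe set. They were used as deposited. Array medians were 5.70 to 5.87, and 5 arrays per group limit the precision. One probe set stood for each of 12394 genes, and 8069 genes above a log2 value of 4 in at least 5 arrays were tested. A model of the 4 group means over all 20 arrays was fitted (lmFit, eBayes; limma 3.58.1, R 4.3.3). Tests were two-sided, adjusted with Benjamini-Hochberg over all genes tested and called at an adjusted p under 0.05. Errors of differences are standard errors (SE), those of means standard deviations (SD). The members and all lists were chosen with earlier results of these data known, so no p is given over a list. Values by animal are given for the 2 members of each role with the largest difference at E18.5 and for Cdk1, Psrc1, Top2a and Birc5; Ect2 and Pttg1 were added after their values were seen. Of the other mitotic genes, the called one with the largest difference in each role was named, and those called against their role's majority. The stage position and the limits around the start in the promoter search were also set after the values were seen. On simulated data for the E18.5 comparison over 8069 genes, 96% of changes of 1 and 59% of changes of 0.5 were recovered, with 2.5% false calls. These shares are over all genes tested, whose median SD was 0.16 in E18.5 controls and mutants. They do not hold for the mitosis genes, with a median SD of 0.56 and 0.59 in those groups. Plots used Python 3.11.15 and matplotlib 3.10.9.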

Additional observations from a re-analysis of the deposited data

Results flagged for a closer look

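In groups of 5 animals, an animal was picked out where its gap to the nearest other animal was over Dixon's limit for 5 values as a share of the group's range, which chance exceeds in about 1 in 20 groups. Of 68 groups tested (17 mitosis genes in 4 groups), 18 had such an animal, and 14 of the 18 were E18.5 control 3, high each time. Its log2 values were 10.80 for Cdk1, 10.70 for Ccna2, 9.75 for Cdca3, 8.96 for Plk1, 8.63 for Melk, 10.29 for Mad2l1, 7.15 for Ttk, 10.37 for Birc5, 8.94 for Aurkb, 8.11 for Hmmr, 10.87 for Top2a, 11.26 for Ube2c, 9.23 for Kif20a and 9.28 for Kif23. The genes are from the same array, so these are not 14 separate events. Of the remaining 4, Ccna2 was high in E16.5 control 1 (11.74), Aurkb low in E16.5 control 5 (10.14), and Cenpf (9.10) and Top2a (11.62) low in E16.5 mutant 4.

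The mutant effect differed between the stages by the interaction test (limma) for 4 of the genes described animal by animal under the naming rule. The differences between the E18.5 and the E16.5 effect were 2.30 for Psrc1, 1.59 for Cenpe, 1.33 for Cenpf and 1.14 for Mad2l1 on the log2 scale.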

How the results depend on the processing

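No called result changed direction under any alternative run. This does not cover the signs of the small, uncalled differences at E16.5. The count of mitosis genes with a called interaction, 12, was 4 with no filter on dim genes, 37 with array weights, 2 with sex as a covariate and 0 at an adjusted p under 0.01; leaving out single arrays gave 3 to 35, the highest without E18.5 control 3, and without E18.5 mutants 5 and 3 it was 33 and 26. The eBayes fit with trend and robust settings gave 18 and quantile normalization 15. The cause was not tested. The other counts stayed within 1.5 times: 26 to 37 members at E18.5, 0 at E16.5, 36 to 37 between stages in controls and 32 to 37 in mutants, and 35 to 37 between E18.5 mutants and E16.5 controls. Of the other mitotic genes, 40 to 69 were called at E18.5 and 64 to 84 between stages in controls. Animals share replicate numbers across groups, but same-numbered animals did not deviate together in every pair: correlations ran from -0.43 to 0.60, with 15 of 30 over 0.1, among them all 6 of number 5 and 1 of the 6 of number 3, and 8 of 20 arrays correlated best with their own number, a hint from the data and not from the design. With the replicate block the fit called 37 members at E18.5, 36 between stages in mutants and 9 for the interaction, and 54 other mitotic genes at E18.5. Depth is not given by arrays. Dim values limit Cdc25c and Cenpe at E18.5, and Cenpm, Dlgap5 and Foxm1 among the other genes named. Of the tested other genes that enter only the counts, Mybl2, Cenpo, Mastl and Gtse1 were above 4 on 13, 15, 16 and 17 of the 20 arrays.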
